A study of Mus musculus with 21 samples.

Results

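Trembler mice (TR), whose Pmp22 gene has a point mutation, were set against mice carrying a Pmp22 transgene (TG) in sciatic nerve at postnatal day 4 (P4), as 3 arrays of each out of the 21 in the series. All probe sets of the deposited value table entered, on the log2 scale after low values had been raised to a floor, and 10994 of 12422 were bright enough to be tested. Each array held RNA pooled from 4 to 7 mice. Further groups of the same age were mice with both copies of Pmp22 null (KO) and wild type mice of mixed background (WT), with 3 arrays each. TR and TG nerves at day 60 (P60), with 2 arrays each, served to ask whether a difference was the same in the adult. The transgene is cited in the labels from a report of raised Pmp22 gene dosage, and its copy number, its promoter, the zygosity of the Trembler allele and the strain backgrounds of TR and TG are not in the labels.

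PMP22 is a small membrane protein with 4 hydrophobic segments that Schwann cells, the glia of peripheral nerve, place in compact myelin. The protein folds poorly even in normal cells, and much of it is retained in the endoplasmic reticulum and degraded. Mutant and excess PMP22 are both known to build up in Schwann cells, in aggregates handled by cytosolic chaperones, by ubiquitin and the proteasome, and by autophagy. The cytosolic heat shock response is driven by the transcription factor HSF1, which binds heat shock elements in the promoters of Hsp70 and other chaperone genes, while misfolded protein inside the endoplasmic reticulum is sensed by a separate pathway through IRE1, PERK and ATF6. In the mouse sciatic nerve the first postnatal week is the time when Schwann cells wrap axons and make cholesterol and myelin lipids at a high rate. The comparison asks how nerves with an altered PMP22 protein differ from nerves with a surplus of the gene, both of which lead to neuropathy.

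Values are the dChip model-based expression index, a brightness on a linear scale, and differences are on the log2 scale, TR minus TG, with the standard error of the fit. "Rose" and "fell" stand for an adjusted p under 0.05 in limma, fitted to all 21 arrays. The median index of the 6 arrays was 181.3 to 196.8, and 79.2% to 80.8% of each array's probe sets exceeded the floor of 54.7. Across probe sets, Pearson's r of log2 values was 0.932 to 0.974 among TR arrays, 0.947 to 0.984 among TG arrays and 0.930 to 0.974 between the groups. The number of arrays limits the precision, and p-values measure the spread between pools, with animals, preparation and array together. In whole nerve, fewer cells of a type and less RNA per cell cannot be told apart. TR arrays were scanned on days 2, 3 and 8 of the 10 scan days and TG arrays on days 4, 4 and 10, so that no day held both groups.

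Pmp22 itself was read by 2 probe sets. The brighter gave 6779, 7383 and 5875 in TR nerves and 6676, 6606 and 6803 in TG nerves, with 4839, 5424 and 5129 in KO and 6839.9, 7682 and 7093 in WT. The TR and TG arrays overlapped, and the difference was -0.01 ± 0.11 (adjusted p = 1, 95% interval -0.24 to 0.22). The dimmer probe set gave 61.3, 60.5 and 49.5 in TR, 61.4, 80.9 and 122 in TG, 38, 40.2 and 38.6 in KO and 97.4, 106 and 104 in WT, a difference of -0.53 ± 0.20 (adjusted p = 0.419). Its TR arrays lay below its TG arrays, by a margin of less than 1 index unit between the closest ones, and near the floor. Which part of the transcript either probe set covers is not given in the files, and KO nerves gave a bright signal with the first, so these values check neither the transgene nor the null allele.

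limma called 16 of 10994 probe sets (0.146%), 13 higher (0.118%) and 3 lower (0.0273%) in TR than in TG, with 1014 (9.22%) at an unadjusted p under 0.05 (4.26% higher and 4.97% lower). The arrays of the groups did not overlap for 1349 probe sets (12.3%), with TR higher for 6.59% and lower for 5.68%. The 13 rises were of 12 genes: the inducible Hsp70 genes Hspa1a and Hspa1b, the Hsp90 gene Hsp90aa1, the autophagy receptor gene Sqstm1, the asparagine synthetase gene Asns with both of its probe sets, the chemokine gene Cxcl10, and Clvs1, Meg3, Rprm, Fut8, Lifr and Sfn. The falls were of Pkp2, Ube2t and a probe set with no gene name. Set against the 3 WT arrays of the same age, 8 of the 16 had all TR arrays above WT while TG overlapped WT, and 3 (Sqstm1, Clvs1 and Lifr) had TR above and TG below WT. In 3, the falls, TG lay above WT and TR overlapped it. Fut8 had TG below WT, and Meg3 overlapped WT in both. Of all genes, 5.47% had all TR arrays above WT, 6.67% had all TG arrays above and 5.69% all TG arrays below. The 16 were selected on the same TR and TG arrays, so their separation from WT is not an independent result. The count of 16 became 10 without the first or the second TG array. It became 81 (22 higher, 59 lower) without the third TR array, which turned the majority. Median scaling of the arrays gave 25 (16 higher, 9 lower) and quantile scaling 34 (23 higher, 11 lower). Fitted on the 6 arrays alone, 2 were called, Hspa1a and the Y-linked gene Eif2s3y, which is not among the 16.

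**Figure D1:**
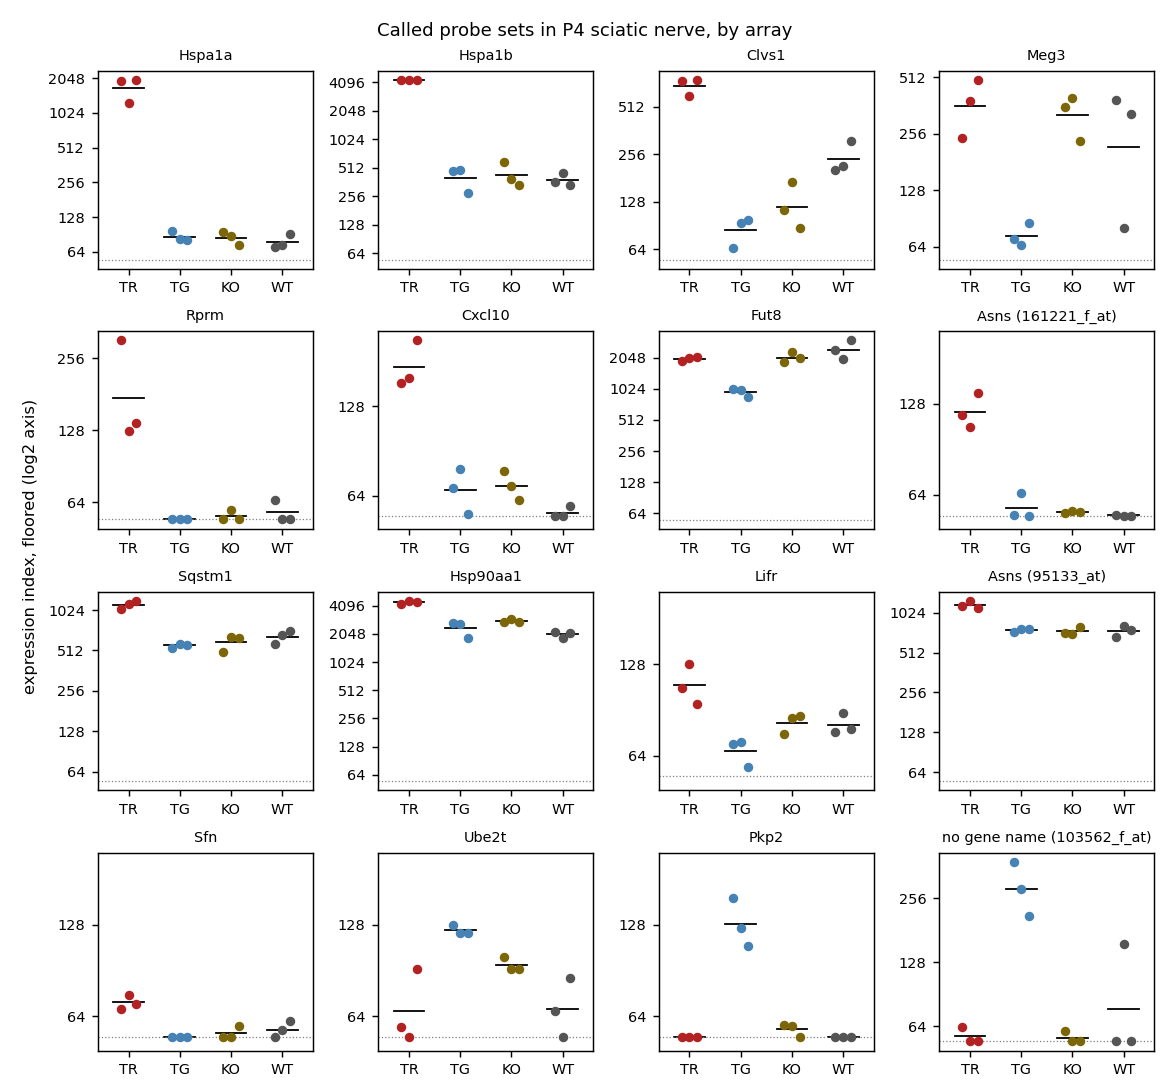
Expression index (log2 axis, values below the floor drawn at it) of the 16 called probe sets on each array of the TR, TG, KO and WT groups at P4, 3 arrays a group. Points are arrays, short bars the mean of log2 values, and the dotted line the floor of 54.7. TR and TG points do not overlap in any panel, and in the Hspa1a panel TR lies at 1242 or above against 97.5 or below in TG.

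Scan day was tested because TR and TG shared none. As a fixed block it could be fitted only through a chain of other groups. TR shared day 3 with WT, and TG shared day 4 with KO and day 10 with P60 KO. WT and KO were joined only through P60 WT and P60 TR arrays, on days 6, 7 and 9. The block left 5 residual degrees of freedom and called 3 probe sets, none of them among the 16. With that block Hspa1a was 5.62 (adjusted p = 0.0674), Hspa1b 4.07 (adjusted p = 0.148), Sqstm1 0.89 (adjusted p = 0.812), Hsp90aa1 0.65 (adjusted p = 0.723), Cxcl10 1.37 (adjusted p = 0.637) and Asns 0.58 (adjusted p = 0.83) by its brighter and 0.20 (adjusted p = 0.968) by its dimmer probe set. All 15 called probe sets with a gene name kept their sign. The TR arrays of days 2 and 8 were alone on their days, so the fixed block absorbed them. On the TR side the block values thus rest on the day 3 array, which was also used to select these probe sets. The kept signs are therefore not a check over all TR arrays. Within day 3, the second TR array exceeded the second WT array by 4.07 for Hspa1a, 3.27 for Hspa1b, 1.32 for Hsp90aa1, 0.76 for Sqstm1 and 1.54 for Cxcl10. Within day 4, the first and second TG arrays differed from the first and second KO arrays by -0.02 for Hspa1a, 0.00 for Hspa1b, -0.11 for Hsp90aa1, -0.03 for Sqstm1 and 0.00 for Cxcl10. That difference was -2.46 for Meg3, -1.03 for Fut8, -0.83 for Clvs1 and 1.23 for Pkp2. It was 2.50 for the probe set with no gene name and from -0.18 to 0.37 for the other called ones. Within day 3, Meg3 differed by 2.23, Clvs1 by 1.48, Fut8 by 0.03 and the probe set with no gene name by -1.51. The day 3 values rest on the second TR and WT arrays alone. With scan day as a random block 15 probe sets were called, 11 of the 16 among them.

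The inducible Hsp70 genes, whose chaperone holds unfolded proteins in the cytosol, differed most. Hspa1a had an index of 1933, 1242 and 1990.1 in TR nerves, against 97.5, 83.5 and 80.6 in TG nerves, 95.4, 87.9 and 73.5 in KO and 71, 73.9 and 92 in WT. Every TR array was more than 10 times as bright as any array of the other groups, and TG, KO and WT were intermixed near the floor. Hspa1a rose by 4.28 ± 0.24 (19.4-fold; limma adjusted p = 1.6e-08). Hspa1b had 4382, 4338 and 4389 in TR, against 477, 487 and 276 in TG, 588, 393 and 336 in KO and 365, 450.0 and 334 in WT. The 3 TR arrays were nearly equal, and TG again overlapped KO and WT. Hspa1b rose by 3.45 ± 0.23 (10.9-fold; adjusted p = 1.49e-07). The genes are near-identical copies, so the division of signal between their probe sets is uncertain. Both calls were kept in each of the 6 fits that left out 1 TR or TG array.

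The promoters of the pair are shown because both genes rose together. In RefSeq's table for GRCm38.p6 their windows of 250 bases before the start carried the same letter at 247 positions (98.8%). The last 150 bases before each start are given 5′ to 3′ on the gene's own strand (minus), at chr17:34972157-34972306 for Hspa1a and chr17:34959239-34959388 for Hspa1b. Capitals mark the letters GAANNTTC, a pair of inverted heat shock repeats, 104 to 97 bases before the start.
Hspa1a: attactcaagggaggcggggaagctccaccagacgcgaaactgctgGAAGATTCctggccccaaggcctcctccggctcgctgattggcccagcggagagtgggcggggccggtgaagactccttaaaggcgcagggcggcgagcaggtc
Hspa1b: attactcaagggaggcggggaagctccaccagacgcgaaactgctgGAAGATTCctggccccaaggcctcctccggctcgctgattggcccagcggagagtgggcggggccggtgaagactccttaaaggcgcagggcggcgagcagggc
These letters, which read the same on either strand, were found in 6.7% of all 32841 promoter windows of that length. Of 14 named genes with a called probe set, 11 had a promoter in the table. Among these, windows of Asns and Fut8 also held the letters GAANNTTC. Other motifs were searched too, and the Hspa1a and Hspa1b windows held a match to the NF-kappa-B site, 133 to 124 bases before the start. A match of letters does not show that a factor binds there.

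Hsp90aa1, the stress-inducible Hsp90 gene, had 4332, 4617 and 4479.7 in TR nerves, against 2662, 2621 and 1868 in TG, 2776, 2924 and 2738 in KO and 2171, 1846 and 2106 in WT. TR lay above all other arrays, and TG overlapped WT. It rose by 0.93 ± 0.14 (1.9-fold; adjusted p = 0.00536), while a second probe set near the floor gave -0.12 (adjusted p = 0.886). Of 37 measured heat shock response genes, with each gene (as in every list) represented by its brightest probe set, these 3 were called higher and none lower, where 0.13% of all 7703 genes were called higher and 0.026% lower (4.32% and 5.1% at an unadjusted p under 0.05). In 15 of the 37 all TR arrays lay above all TG arrays and in none below, against 7.05% and 5.92% of all genes. The median difference was 0.20 over the list and 0.00 over all genes. The list median was 0.31 without the second TR array and 0.13 without the third TR or the third TG array. Over the list the summed index ran from 38495 to 43554 in TR, against 25702 to 29069 in TG and 26669 to 30715 in WT. The 3 called genes took much of the gap between TR and TG. Means of Hspa1b, Hsp90aa1 and Hspa1a were 4370, 4476 and 1721 in TR, against 413, 2384 and 87.2 in TG.

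Several cochaperones were among the 15 without passing the test; these were chosen for mention after their values were seen. Hsph1, the Hsp110 nucleotide exchange factor for Hsp70, had 1256, 909 and 1301 in TR, against 717, 778 and 569 in TG and 613, 529 and 599.7 in WT, a difference of 0.74 ± 0.16 (adjusted p = 0.0892). Chordc1, which encodes an Hsp90 cochaperone, had 1818, 1799.9 and 1809 in TR, against 943, 994 and 365 in TG and 1431, 722 and 934 in WT, a difference of 1.37 ± 0.34 (adjusted p = 0.129). In both genes the third TG array was the lowest of its group, by a wider margin for Chordc1. Dnaja1, an Hsp40 that delivers clients to Hsp70, differed by 0.83 ± 0.23 (adjusted p = 0.189), and Dnajc7, which binds both Hsp70 and Hsp90, by 0.75 ± 0.17 (adjusted p = 0.0923). The constitutive Hsp70 gene Hspa8 differed by 0.58 ± 0.20 (adjusted p = 0.363) and the mitochondrial chaperonin gene Hspd1 by 0.53 ± 0.17 (adjusted p = 0.3). For Hsph1, Chordc1 and Hspa8 all TR arrays lay above KO and WT. TR overlapped KO for Dnaja1, Dnajc7 and Hspd1, and overlapped WT as well for Dnaja1. TG overlapped WT for all of these genes, and all TG arrays lay below KO for each except Hsph1. The direction was not uniform: 26 of the 37 differences were above 0, and the lowest was -0.65.

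TRiC is the cytosolic chaperonin that folds actin and tubulin, and prefoldin hands it new chains. None of the 13 measured subunit genes was called. Cct6a had 1579.8, 1762 and 1396 in TR, against 1134, 1251 and 624 in TG, a difference of 0.71 ± 0.24 (adjusted p = 0.341). It had 1402, 1712 and 1336 in KO and 1175, 755 and 1133 in WT, so that TR overlapped KO. Cct3 differed by 0.67 ± 0.34 (adjusted p = 0.594) and the prefoldin gene Pfdn6 by 0.35 ± 0.18 (adjusted p = 0.613). TR minus KO was 0.09 for Cct6a, -0.03 for Cct3 and 0.13 for Pfdn6. TG minus KO was -0.62, -0.70 and -0.21 in the same order. The list median was 0.32, and the arrays of 5 genes did not overlap, all with TR higher (7.05% of all genes, with 5.92% lower). Without the third TR array the median was 0.18, without the third TG array 0.21, and under the fixed scan-day block 0.06.

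Sqstm1 encodes p62, a receptor that carries ubiquitinated protein aggregates to autophagosomes. Its index was 1042, 1126 and 1196 in TR nerves, against 538, 575 and 562 in TG, 502, 645 and 633 in KO and 575, 667 and 711 in WT. TR was above all other arrays, and TG was just below WT. Sqstm1 rose 2.01-fold (adjusted p = 0.00123), and the log2 difference was 0.96 to 1.06 when 1 array of either group was left out. It was the 1 called member of 30 lysosome and autophagy genes, whose median was -0.04. Gabarapl1, an ATG8 family gene of the autophagosome membrane, had 989.6, 1141 and 1199.6 in TR, against 667, 599.8 and 749 in TG and 787, 597 and 639 in WT, a difference of 0.73 ± 0.23 (adjusted p = 0.267). The lysosomal protease gene Ctsd differed by 0.29 ± 0.11 (adjusted p = 0.414). Neither group overlapped the other in these genes, but the differences did not pass.

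The proteasome degrades ubiquitinated protein. None of its 35 measured genes was called, but 31 of 35 differences were above 0 and the median was 0.25. It was 0.37 without the second TR array and 0.16 without the third. In 16 genes all TR arrays exceeded all TG arrays and in none the reverse, against 7.05% and 5.92% of all genes. Against WT, 17 of the 35 had all TR arrays higher (5.47% of all genes) and 4 had all TG arrays higher (6.67%), with 0 lower in either. Psmd14, the deubiquitinase of the regulatory particle, had 1953, 2069 and 2458 in TR, against 1244, 1515 and 1232 in TG and 1490.0, 962 and 1551 in WT, a difference of 0.70 ± 0.17 (adjusted p = 0.129). The ATPase gene Psmc1 had 499, 506 and 791 in TR, against 299, 392 and 378 in TG, a difference of 0.72 ± 0.22 (adjusted p = 0.254), and the core subunit gene Psmb2 differed by 0.43 ± 0.14 (adjusted p = 0.32). Their TR and TG arrays did not overlap. The summed index of the list was 42296 to 53378 in TR, against 36550 to 38331 in TG and 30578 to 37010 in WT.

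The list of endoplasmic reticulum stress and folding genes did not move in one direction. None of 31 genes was called, 15 differences were above 0, and the median was -0.02. Pdia6, a disulfide isomerase gene, had 655, 758 and 893 in TR, against 506, 532 and 188 in TG, with the third TG array far below the other TG arrays, and a difference of 1.04 ± 0.38 (adjusted p = 0.392). Manf, a secreted factor induced by such stress, differed by -0.52 ± 0.20 (adjusted p = 0.416) and the calcium-binding chaperone gene Calr by -0.55 ± 0.25 (adjusted p = 0.519). Of the classical markers, chosen after their values were seen, none was called between TR and TG. Hspa5, which encodes BiP, had 2243, 1967 and 2471 in TR, against 2290.3, 2303 and 1651 in TG and 2017, 1687 and 2116 in WT, with a difference of 0.11 ± 0.17 (95% interval -0.25 to 0.46). For Hsp90b1, which encodes GRP94, the interval was -0.11 to 0.65, for the transcription factor genes Xbp1 and Ddit3 -0.83 to 0.11 and -0.75 to 0.20. Against the other groups, all Hsp90b1 arrays of TR lay above WT, all Ddit3 arrays of TG above WT and KO, and all Hspa5 arrays of TG below KO.

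**Figure D2:**
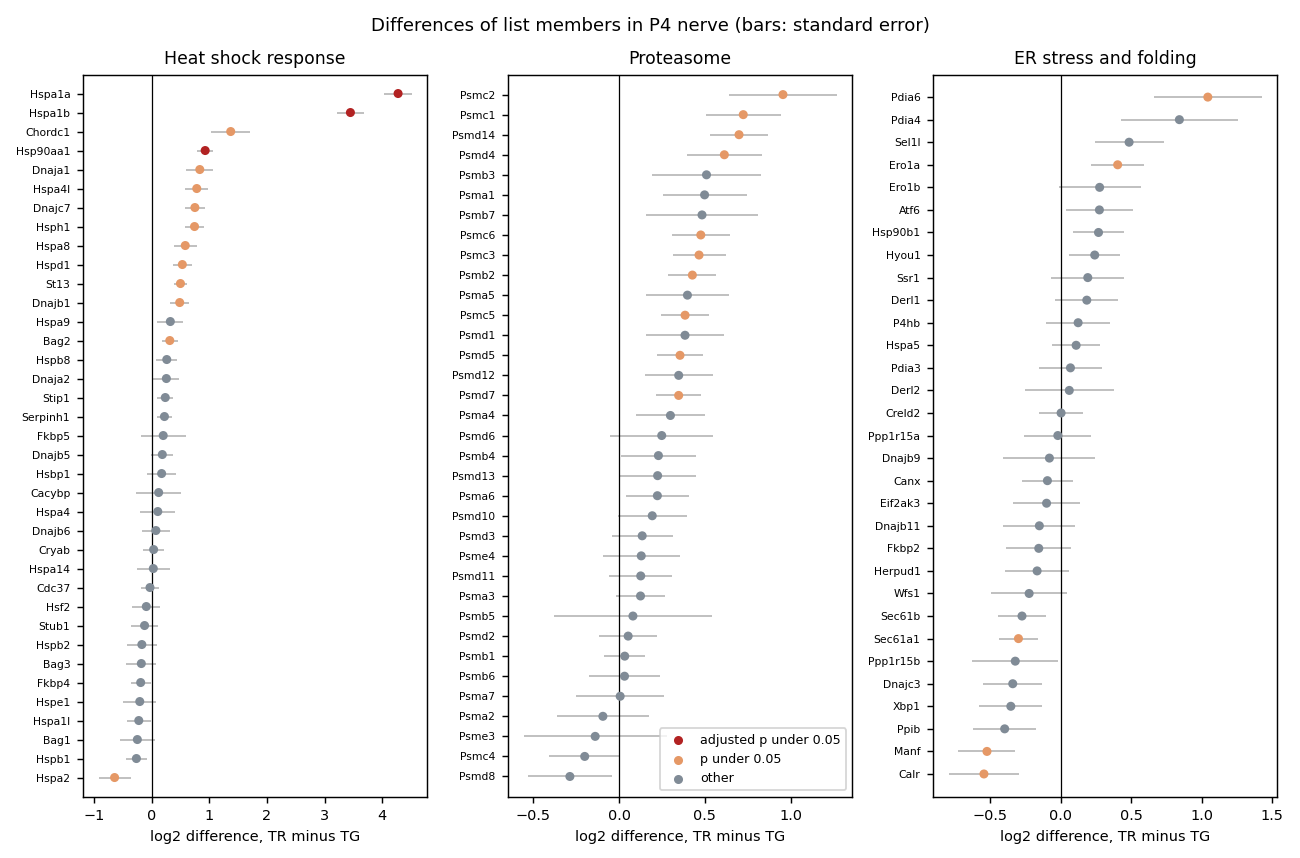
Log2 difference, TR minus TG at P4, of each measured gene of the heat shock response (37), proteasome (35) and endoplasmic reticulum lists (31), by the brightest probe set, with the standard error as a bar. Red points passed an adjusted p of 0.05, orange ones an unadjusted p under 0.05. Hspa1a at 4.28 and Hspa1b at 3.45 stand away from the other genes, 31 of 35 proteasome genes lie right of 0, and the third panel is spread around 0.

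Asns makes asparagine and is a target of ATF4, the transcription factor of the integrated stress response. Its brighter probe set had 1151, 1259.6 and 1119 in TR, against 730.1, 770.1 and 768 in TG, 716, 710.1 and 799 in KO and 674, 809 and 765 in WT. TR was above every other array, and the rest were intermixed. The difference was 0.64 ± 0.12 (adjusted p = 0.0439), and of the 6 fits that left out 1 array it passed only in the one without the third TR array. The dimmer probe set had 117, 108 and 139 in TR, against 54.9, 65 and 51.8 in TG, and rose by 1.05 ± 0.16 (adjusted p = 0.00536), passing in all 6. Its TG, KO and WT arrays lay at or near the floor, so the fold is understated.

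Of 35 measured ATF4 target and amino acid supply genes, Asns was the 1 called, and the median was 0.02. The amino acid transporter gene Slc7a5 had 426, 391 and 411 in TR, against 266, 319 and 271 in TG and 300.1, 230.1 and 305 in WT, a difference of 0.52 ± 0.17 (adjusted p = 0.3). Ddit4, an inhibitor of mTORC1, lay the other way, with 623, 414 and 797 in TR, against 1291, 975 and 1159.6 in TG and 653, 496 and 618 in WT, a difference of -0.94 ± 0.20 (adjusted p = 0.0811). TR overlapped WT for Ddit4 and TG was above it. Atf4 mRNA itself, chosen after its values were seen, differed by 0.18 ± 0.14 (95% interval -0.10 to 0.47). The Asns promoter is shown because its 2 probe sets rose, with 150 bases before the start at chr6:7693210-7693359 (GRCm38.p6, minus strand). Capitals mark TGATGNAA, the amino acid response element, searched on both strands and found in 3.45% of windows. Windows of the called genes Sfn and Fut8 held a match as well.
Asns: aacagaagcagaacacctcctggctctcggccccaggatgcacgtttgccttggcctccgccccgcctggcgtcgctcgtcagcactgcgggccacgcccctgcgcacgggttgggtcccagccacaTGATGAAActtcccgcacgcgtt
The match lies 23 to 16 bases before the start, and the letters GAAACTTC, a match to the heat shock pair above, overlap its last bases at 19 to 12.

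Cxcl10, an interferon-induced chemokine that attracts T cells, had 154, 159 and 213 in TR nerves, against 67.8, 78.9 and 55.7 in TG, 77.2, 69.1 and 62.1 in KO and 40.2, 50.1 and 59.1 in WT. TR was above all the others, and TG lay close to KO and WT near the floor. It rose by 1.38 ± 0.16 (2.59-fold; adjusted p = 0.000261), and passed in all 6 fits without 1 array. It was the 1 called gene of 38 for antigen presentation and the interferon response, whose median was -0.07, with 10 differences above 0. All 250 bases before the Cxcl10 start are given (chr5:92348890-92349139, GRCm38.p6, minus strand). Capitals mark GAAA, any 2 bases and GAAA again, the core of the interferon-stimulated response element, 213 to 204 bases before the start and found in 2.98% of windows on either strand. The same window, not marked, held matches to the NF-kappa-B site at 159 to 150 and 103 to 94 bases before the start. Such matches were found in 17.6% of windows.
Cxcl10: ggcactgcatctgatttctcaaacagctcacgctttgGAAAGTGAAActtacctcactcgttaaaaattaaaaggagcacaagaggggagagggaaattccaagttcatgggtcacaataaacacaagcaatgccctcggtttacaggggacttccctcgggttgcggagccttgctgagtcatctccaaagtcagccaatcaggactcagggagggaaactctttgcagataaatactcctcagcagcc
Cxcl10 is also on the list of immature, non-myelinating and injured Schwann cells, and was the 1 called of its 26 genes (median -0.03). Ednrb, an endothelin receptor of immature Schwann cells, lay the other way, with 207, 155 and 184 in TR, against 622, 512 and 442 in TG and 259, 114 and 164 in WT. TG was above every other array, and the difference of -1.52 ± 0.31 missed the threshold (adjusted p = 0.0734). The chemokine gene Ccl2 differed by -0.79 ± 0.34 (adjusted p = 0.483), with overlapping arrays.

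Clvs1, which encodes a clathrin-coated vesicle lipid-binding protein, had 739, 597 and 758 in TR nerves, against 64.8, 94.2 and 97.9 in TG, 113, 169.5 and 86.7 in KO and 204, 214 and 308 in WT. The WT arrays stood between the mutants, above TG and below TR. Clvs1 rose by 3.04 ± 0.31 (8.24-fold; adjusted p = 6.3e-05). Fut8, the core fucosyltransferase of N-glycans, had 1890.1, 2012 and 2057 in TR, against 1013, 1004 and 845 in TG, 1842, 2305 and 2032 in KO and 2405, 1973 and 3014 in WT. Here TG stood apart, with TR among the KO and WT arrays. Fut8 rose by 1.06 ± 0.17 (2.09-fold; adjusted p = 0.00742) and missed the threshold without the third TG array (adjusted p = 0.0615).

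Rprm, which arrests cells before mitosis, had 304, 127 and 137 in TR, against 29.8, 32 and 37.7 in TG and 65.3, 32.5 and 54.1 in WT. All TG arrays lay below the floor, so that its rise of 1.67 ± 0.22 (adjusted p = 0.00123) was at least 3.18-fold. Its second probe set differed by 0.58 (adjusted p = 0.371). The imprinted noncoding RNA gene Meg3 had 243, 381 and 497 in TR, against 70.2, 65.4 and 86.1 in TG, 354, 395 and 236 in KO and 385, 81.2 and 326 in WT. Its call (2.29 ± 0.44, adjusted p = 0.0451) was lost in all 6 fits without 1 array, and a brighter probe set gave -0.14 ± 0.29 (adjusted p = 0.977). The cytokine receptor gene Lifr had 107, 128 and 94.3 in TR, against 69.8, 71.1 and 58.7 in TG, and rose by 0.72 ± 0.14 (adjusted p = 0.0439) by 1 dim probe set of 5, the other 4 giving 0.05 to 0.35. Sfn, the 14-3-3 sigma gene, had 67.6, 75.4 and 70.5 in TR with all TG arrays below the floor, a rise of 0.38 ± 0.07 (adjusted p = 0.0439). Of the 6 fits that left out 1 array, the Lifr and Sfn calls were kept only in the one without the third TR array.

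The falls were in transcripts near the floor in TR. Pkp2, which encodes the desmosomal protein plakophilin, lay below the floor on all TR arrays, against 157, 125 and 109 in TG and 47.2, 47.3 and 50.7 in WT, a fall of at least 2.36-fold (-1.24 ± 0.23, adjusted p = 0.0439). Ube2t, a ubiquitin-conjugating enzyme of DNA repair, had 59, 33.6 and 91.5 in TR, against 127, 120.2 and 121 in TG and 66.4, 48.2 and 85.4 in WT (-0.88 ± 0.17, adjusted p = 0.0439). Of the 6 fits that left out 1 array, both calls were kept only in the one without the third TR array. The probe set without a gene name had 63.7, 34.5 and 13.5 in TR, against 380.0, 283 and 211 in TG (-2.30 ± 0.30, adjusted p = 0.00118) and passed in all 6. Of the next smallest p-values among lower probe sets, none passed. Cadm1, an adhesion molecule of Schwann cells and axons, had 1602, 1325 and 2024 in TR, against 4218, 4164 and 2452 in TG and 1417, 1538 and 2599 in WT (-1.11 ± 0.24, adjusted p = 0.0819). The laminin receptor gene Itgb4, expressed by perineurial and Schwann cells, had 219.9, 91.7 and 275 in TR, against 427, 417 and 579 in TG (-1.41 ± 0.29, adjusted p = 0.0766). The mitochondrial cristae gene Chchd3 (-0.74 ± 0.15, adjusted p = 0.0806) and the expressed sequence R74862 (-0.77 ± 0.16, adjusted p = 0.0796) completed these.

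Schwann cells make the cholesterol of myelin themselves. None of 17 measured genes for its synthesis was called between TR and TG, and the median difference was 0.10. It was 0.18 without the first TR array, 0.00496 and 0.0478 without the first and the second TG array, and 0.25 without the third TG array. Against WT, all TR arrays were lower for 13 genes (4.8% of all genes) and all TG arrays for 12 (5.69%), with medians of -1.06 and -1.15. The groups share the WT arrays, so these counts are not independent. Hmgcs1, chosen after its values were seen as were Fdps, Scd1, Elovl6, Mbp, Mal and Ndrg1, makes the precursor of mevalonate. It had 1049, 1124 and 1189.8 in TR and 723, 801 and 1846 in TG, against 2159, 3078 and 2319 in KO and 3604, 3466 and 3689.9 in WT, with an interval of -0.40 to 0.67 for TR minus TG. Fdps, of the isoprenoid branch, had 1065, 1156 and 888 in TR, against 419, 517 and 1744 in TG and 2407, 3139 and 3074 in WT. The third TG array was the highest of its group for both, and above the TR arrays. The Fdps difference ranged from 0.118 without the first TG array to 1.15 without the third. The largest gaps went different ways: Idi1, the isopentenyl isomerase, had 1437, 1425 and 1801 in TR, against 709, 866 and 1238 in TG and 3891, 3553 and 3741 in WT (0.76 ± 0.18, adjusted p = 0.104). Hsd17b7 differed by 1.02 ± 0.37 (adjusted p = 0.392) and the sterol isomerase gene Ebp by -0.85 ± 0.26 (adjusted p = 0.267).

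None of 19 genes for fatty acids and myelin lipids was called (median 0.09). All TR arrays lay below WT for 10 of them (4.8% of all genes) and all TG arrays for 12 (5.69%). Ugt8a, which makes galactosylceramide, had 268, 288 and 340.4 in TR, against 112, 168 and 108 in TG and 583, 469 and 367 in WT. TR was above TG and below WT, and the difference of 1.23 ± 0.30 did not pass (adjusted p = 0.129). Cers2, the ceramide synthase for very long chains, differed by -0.51 ± 0.19 (adjusted p = 0.406), and Sptlc2, of the first step of sphingolipid synthesis, by 0.41 ± 0.18 (adjusted p = 0.501). The desaturase gene Scd1 had 1972, 1779 and 1705 in TR, against 1835, 1485 and 1889 in TG and 4711, 4971 and 4555 in WT, with an interval of -0.21 to 0.36. For the elongase gene Elovl6 the interval was -0.25 to 0.49.

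None of 14 myelin protein genes was called (median 0.06). All TR arrays lay below WT for 7 (4.8% of all genes) and all TG arrays for 8 (5.69%), while Emp3 had all TG arrays above WT (6.67%). The glial calcium-binding protein gene S100b had 222, 145 and 215 in TR, against 359, 320.3 and 735 in TG, 365, 501 and 476 in KO and 673, 733 and 895 in WT. The order of means was TR, TG and WT from low to high, and the difference of -1.20 ± 0.27 missed the threshold (adjusted p = 0.0923). Emp3, of the PMP22 family, had 1947, 1562 and 1886 in TR, against 3299, 2701 and 3404 in TG and 1948, 2045 and 2366 in WT (-0.80 ± 0.18, adjusted p = 0.0923), and its second probe set gave -0.09. The tetraspanin gene Cd82 had 850.0, 963 and 721 in TR, against 399, 415 and 369 in TG (1.09 ± 0.30, adjusted p = 0.185), while its other probe set gave -0.00 ± 0.14. Myelin basic protein, Mbp, had 4221, 4808 and 4272 in TR, against 4295, 3926 and 4729 in TG and 5531, 5950.3 and 5545 in WT, an interval of -0.20 to 0.28. Mal, a raft protein of myelin, had 1614, 1868 and 1448 in TR, against 1114, 1059 and 1165 in TG and 2461, 1918 and 2338 in WT (0.56 ± 0.24, adjusted p = 0.483), and Ndrg1 differed by 0.35 ± 0.12 (adjusted p = 0.371).

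**Figure D3:**
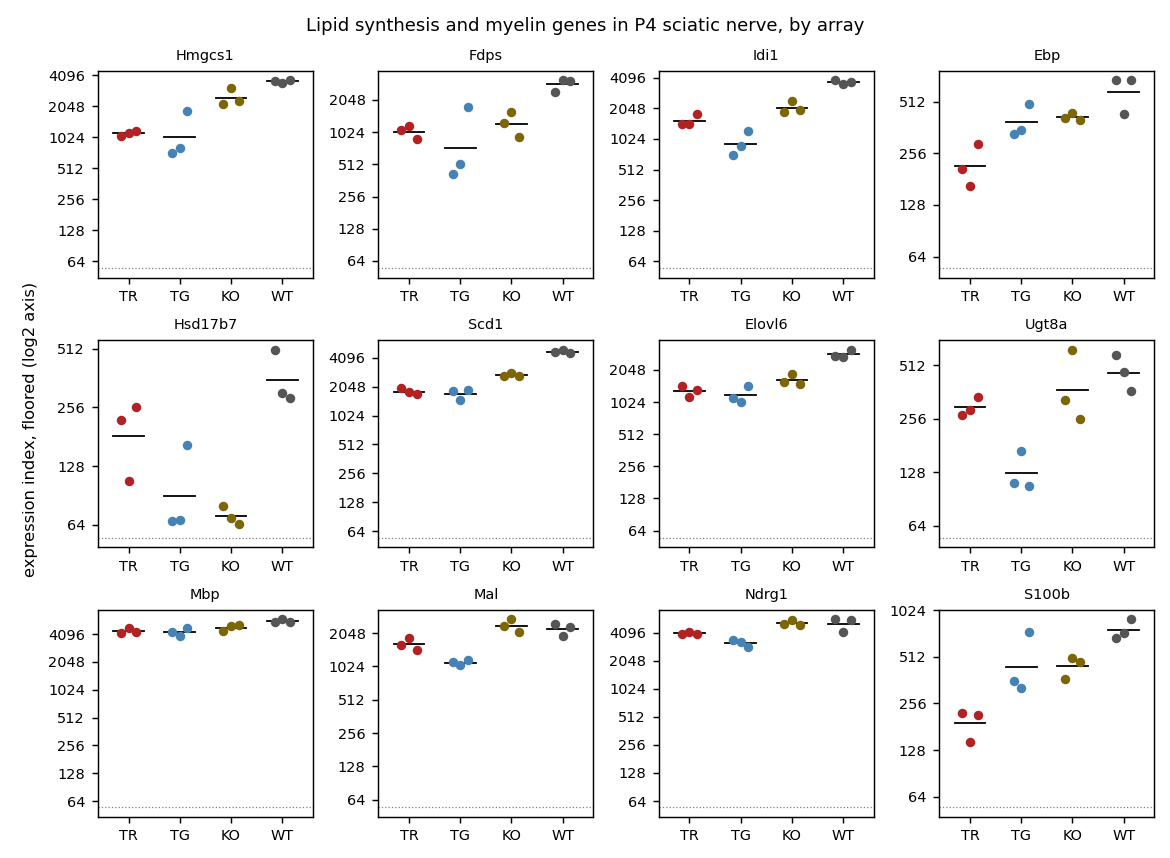
Expression index (log2 axis) of 12 lipid synthesis and myelin genes on each P4 array, TR, TG, KO and WT from left to right. Points are arrays, bars the mean of log2 values, the dotted line the floor of 54.7. For Hmgcs1, Idi1, Scd1 and Elovl6 all TR and TG points lie below all WT points, and the TR and TG points of Hmgcs1, Scd1 and Elovl6 overlap.

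Among 27 transcription regulators of Schwann cells none was called (median -0.08). Sox10, the master factor of the lineage, had 1121, 641 and 1130.1 in TR, against 1381, 1404 and 1709 in TG, 1068, 871 and 1076 in KO and 964, 826 and 962 in WT. TG was above all the others, and TR overlapped WT, with a difference of -0.68 ± 0.21 (adjusted p = 0.267) that a second probe set gave as -0.17 ± 0.40. Sox4 differed by -0.59 ± 0.23 (adjusted p = 0.438) and Id3 by -0.64 ± 0.26 (adjusted p = 0.443). Chosen after their values were seen, Egr2, which drives myelination, differed by 0.40 ± 0.18 (adjusted p = 0.501), while Sox2 and Pou3f1, of immature and promyelinating cells, differed by -0.42 ± 0.24 and -0.39 ± 0.38 (adjusted p = 0.66 and 0.867). Of 29 immediate early genes none was called (median 0.00), and 4 had all TR arrays below TG (5.92% of all genes), with none above (7.05%). Fos had 713, 509 and 516 in TR, against 1352, 975 and 857 in TG and 646, 426 and 604 in WT (-0.86 ± 0.24, adjusted p = 0.186). Ier2 (-0.91 ± 0.30, adjusted p = 0.312) and Atf3 (-0.55 ± 0.20, adjusted p = 0.371) lay the same way, and 2 other Atf3 probe sets gave 0.05 and 0.07.

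Among markers of other cells, none of 27 macrophage genes was called, 6 differences were above 0 and the median was -0.14. Lgals3 and Fcgr2b lay at or below the floor on all 6 arrays, and the other members were measured in at least 1. Their summed index was 8019.8 to 8953 in TR, against 10836 to 14156 in TG and 8913 to 11564 in WT, so that TR and TG did not overlap. Apoe, also made by glia, took the largest share of that gap, with 1673, 1564 and 1574 in TR, against 5099.7, 2466 and 5307 in TG, 5263, 5719 and 5197 in KO and 1353, 4204 and 2441 in WT (-1.34 ± 0.39, adjusted p = 0.222). Tyrobp, an adaptor of myeloid receptors, had 110.3, 80.3 and 158 in TR, against 169, 172 and 381 in TG (adjusted p = 0.488), and the protease gene Ctss differed by -0.62 ± 0.27 (adjusted p = 0.49). The part of macrophage number in other results was not tested. Of 21 perineurial and fibroblast genes none was called (median -0.10); Mfap5 had 1099, 1096 and 1535 in TR, against 1632, 1911 and 2416 in TG (-0.68 ± 0.17, adjusted p = 0.153), and Clec3b differed by -0.86 ± 0.24 (adjusted p = 0.189). Of 47 matrix genes none was called, 21 differences were above 0 and the median was -0.01. All TR arrays lay above TG for 6 of them (7.05% of all genes) and below for 8 (5.92%). The basement membrane collagen gene Col18a1 had 819, 757 and 1520.3 in TR, against 2022, 2050.2 and 1542 in TG (-0.92 ± 0.23, adjusted p = 0.141), and Mmp14 (-0.66 ± 0.24) and Col6a2 (-0.70 ± 0.25) lay the same way without passing.

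The sex of the pooled pups is not given. Xist, transcribed from the inactive X chromosome of females, had 1111, 1192 and 942 in TR, against 340.4, 738 and 237 in TG and 519.8, 1003 and 503 in WT (1.46 ± 0.67, adjusted p = 0.521). The Y-linked gene Eif2s3y had 27.7, 3.71 and 23.4 in TR, against 84.9, 84.4 and 81.3 in TG (-0.61 ± 0.42, adjusted p = 0.754), and Kdm5d was near the floor in both (0.01 ± 0.13). All TR arrays of Eif2s3y lay below the floor, so its difference is a bound. The 3 measured sex-linked genes had a median of 0.01, which is the Kdm5d value and does not measure the balance of the sexes. TR lay above TG for Xist and below for Eif2s3y, and the part of the pools' sex in other results was not tested. The lists for neurons and axons (median 0.14), endothelium (0.08), T and B lymphocytes (0.07), erythroid cells (0.02), adipocytes (-0.02), skeletal muscle (-0.04) and the cell cycle (-0.06) held no called gene, nor did those for mast cells, smooth muscle and pericytes, and keratinocytes, with medians of 0.00. Lists take each gene by its brightest probe set. Meg3, on the neuron and axon list, was called only by a dimmer one.

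**Figure D4:**
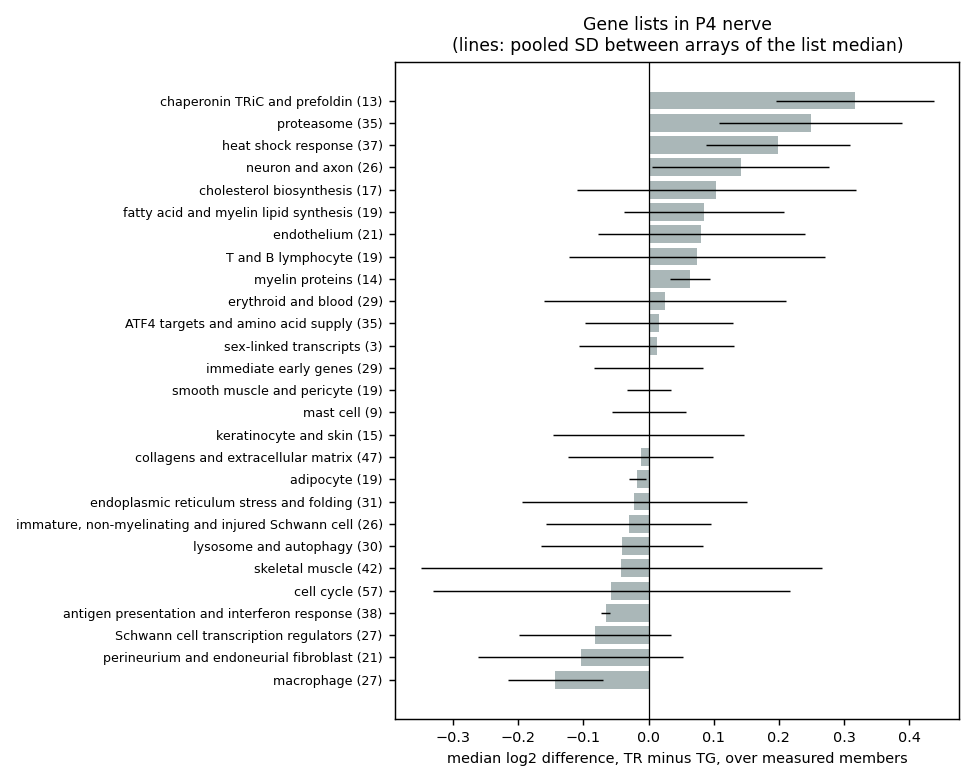
Median log2 difference, TR minus TG at P4, over the measured genes of each of the 27 lists (number in brackets); horizontal lines are the pooled SD between arrays of the list median. The chaperonin (0.32), proteasome (0.25) and heat shock (0.20) lists have the highest medians and the macrophage list (-0.14) the lowest.

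Whether TR and TG differed alike in adult nerve was tested as the P60 difference minus the P4 difference. limma called 132 of 10994 probe sets (1.2%), 75 positive (0.682%) and 57 negative (0.518%), or 88 of 7703 genes (1.14%) by the brightest probe set, with Hspa1a, Hspa1b, Fut8 and Pkp2 among the 16 called at P4. At P60 Hspa1a had 1543 and 2209 in TR, against 461 and 443 in TG, and Hspa1b had 3224 and 4226 in TR, against 1494 and 1210.5 in TG. The adult TR arrays stayed above TG, by 2.03 ± 0.29 and 1.46 ± 0.28, and the TG level was higher than at P4. The change in the difference was -2.25 ± 0.37 (adjusted p = 0.00885) for Hspa1a and -1.99 ± 0.36 (adjusted p = 0.0111) for Hspa1b. Fut8 at P60 had 2486 and 1667 in TR, against 2692 and 2889 in TG, so that TR lay below TG, with a difference of -0.45 ± 0.20 (a change of -1.52 ± 0.26, adjusted p = 0.0103). Pkp2 had 413 and 351 in TR, against 229 and 265 in TG, the opposite order to P4 (a change of 1.86 ± 0.36, adjusted p = 0.0189). This change is a bound, because all P4 TR arrays of Pkp2 lay below the floor. Cxcl10 was 203 and 190.1 in TR, against 73.3 and 71.4 in TG, and Rprm was 193 and 146 in TR, against 15.8 and 21.2 in TG, gaps of 1.44 ± 0.19 and 1.62 ± 0.27 beside 1.38 and 1.67 at P4. All TG arrays lay below the floor for Rprm at both ages, so both of its gaps are bounds and their sizes cannot be compared. The count was 76 without the first P4 TR array, 64 without the second and 345 without the third, 71 and 83 without the first and the second P4 TG array, and 15 without the second P60 TG array. Both P60 TG arrays were the only ones of their scan day, so scan day and group cannot be told apart in the adult pair.

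**Figure D5:**
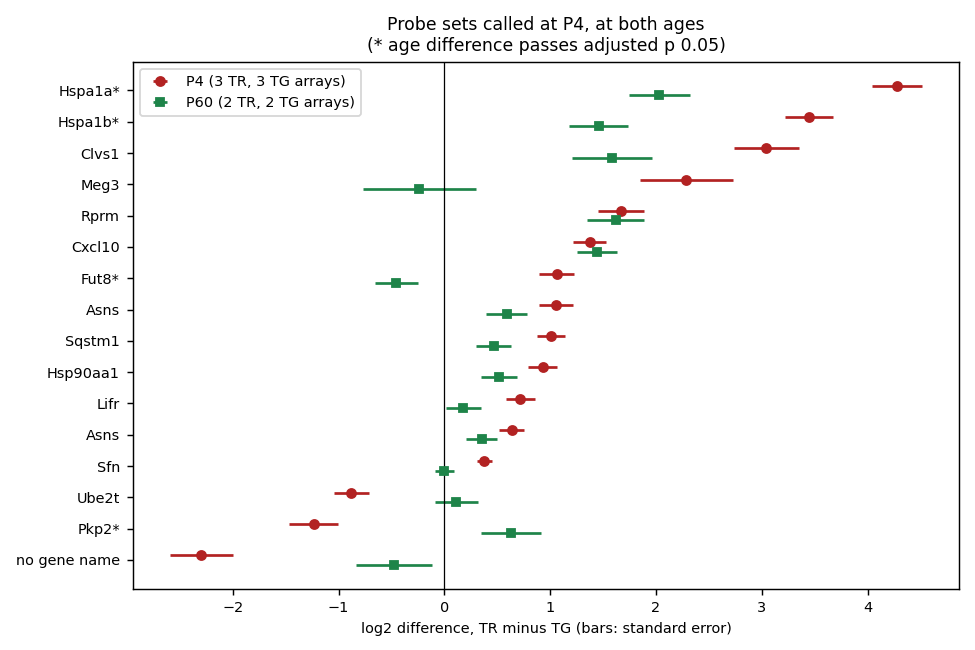
Log2 difference, TR minus TG, of the 16 probe sets called at P4 (red circles, 3 arrays each) and the same difference at P60 (green squares, 2 arrays each), with standard errors. Stars mark the 4 whose change between the ages passed. Hspa1a lies at 4.28 at P4 and 2.03 at P60, while Cxcl10 lies at 1.38 at P4 and 1.44 at P60. The Rprm points are bounds at both ages. So are the Pkp2 and Sfn points at P4, and at P60 those of Ube2t and of the probe set with no gene name. All P60 arrays of Sfn shown here lay below the floor.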

How the data were processed

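Nerve RNA was extracted with RNeasy kits, amplified by a pair of in vitro transcription rounds, labelled with biotin and scanned with MAS 5.0, per the labels. The deposited values are intensities: in dChip the authors fitted a smoothing spline between arrays, then derived 1 model-based index for every probe set (linear, at times negative), with probe sensitivities estimated over more arrays than the 21 analysed here. The labels name neither the dChip version nor the probe model. Other columns per the file headers served for the scan day alone. The floor of 54.7 is the 20th percentile of all values; probe sets above it on at least 2 of 21 arrays were tested and 1428 were left out. Index values below the floor are printed as deposited and entered at the floor, so changes of dim probe sets are understated.

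Gene symbols came from the platform annotation, with 10833 probe sets having 1 symbol, 396 several and 1193 none; 10817 matched a RefSeq gene. The 8 group means were fitted in limma 3.58.1 (R 4.3.3) with 13 residual degrees of freedom and a variance trend in eBayes, and p-values were adjusted by Benjamini-Hochberg in each of 2 comparisons. The members, the gene lists (865 genes, 689 measured) and the rule for named genes were chosen with earlier results of these data known. The rule took Pmp22, called probe sets without overlap (up to 15 each way), the smallest p-values up to 8 where fewer were called, 3 members with the smallest p of each described list and 5 age calls each way. The fit was tested on simulated data. Alternatives were other floors, filters, scalings, samples in the fit, no trend, scan day, replicate number and leaving out each array. Probe sets ending in _f_at, _s_at, _r_at, _i_at or _g_at can take signal from related transcripts.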

Additional observations from a re-analysis of the deposited data

Results flagged for a closer look

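The difference between TR and TG changed between P4 and P60 for 132 probe sets, by the test of the change itself (P60 minus P4, limma adjusted p under 0.05). Of those called at P4, Hspa1a changed by -2.25 ± 0.37, Hspa1b by -1.99 ± 0.36, Fut8 by -1.52 ± 0.26 and Pkp2 by 1.86 ± 0.36. The Pkp2 value is a bound, because its P4 TR arrays all lay below the floor.

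The 5 most positive named changes were of Tyrobp, Ccl2, Hbb-b2, Eef1b2 and Dpm3. Tyrobp, a myeloid adaptor, changed by 3.20 ± 0.68 (adjusted p = 0.0312), with 678 and 371 in P60 TR, against 200.3 and 58.8 in P60 TG. Ccl2, a chemokine for monocytes, changed by 2.87 ± 0.54 (adjusted p = 0.0142), with 494 and 255 in P60 TR, against 116 and 60.5 in P60 TG. For both, TR lay above TG in the adult and had the lower mean at P4. The adult globin gene Hbb-b2 changed by 2.80 ± 0.65 (adjusted p = 0.0447), a gene with close copies. Eef1b2, a translation elongation factor gene, changed by 2.39 ± 0.54 (adjusted p = 0.038) and Dpm3, of dolichol-phosphate mannose synthase, by 2.19 ± 0.39 (adjusted p = 0.0107).

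The 5 most negative were of Fbp1, Xist, Sncg, Cdkn1a and Pdia4. Fbp1, an enzyme of gluconeogenesis, changed by -4.55 ± 0.31 (adjusted p = 5.52e-07), a bound, because both P60 TR arrays lay below the floor (37.3 and 37.3), against 1094 and 1741 in P60 TG. Xist changed by -4.54 ± 1.06 (adjusted p = 0.0458), also a bound, with 7.61 and 3.47 in P60 TR, against 144 and 1476 in P60 TG. The P4 arrays had 1111, 1192 and 942 in TR, against 340.4, 738 and 237 in TG. The Y-linked gene Eif2s3y had 255 and 85.4 in P60 TR, against 258 and 91.7 in P60 TG. The part of the pools' sex in the changes between the ages was not tested. Sncg, a synuclein gene of sensory neurons, changed by -3.86 ± 0.86 (adjusted p = 0.038). Cdkn1a, the cell cycle inhibitor p21, changed by -3.48 ± 0.46 (adjusted p = 0.00272): it was 1764, 1495 and 1627 in P4 TR, against 675, 556 and 635 in P4 TG, and 322 and 273 in P60 TR, against 1121 and 1419 in P60 TG. Its other probe set changed by -0.44 ± 0.29 (adjusted p = 0.551). Pdia4, a disulfide isomerase gene, changed by -3.09 ± 0.66 (adjusted p = 0.0316). For Sncg and Pdia4, 1 P60 TR array lay below the floor.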

How the results depend on the processing

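The count of 16 at P4 became 25 with median scaling, 34 with quantile scaling, 2 with the compared groups alone, 3 with scan day as a fixed block, and 10 to 81 when 1 TR or TG array was left out. The count of 132 for the age difference became 78 without a filter on dim probe sets, 27 with the compared groups alone, 46 with scan day as a random block and 15 to 345 without 1 array; scan day as a fixed block could not be fitted there, nor was there a fit on 1 age. Same-numbered TR and TG arrays deviated with r of 0.128, -0.15 and -0.0937. These values gave no sign of pairing by number but, from so few arrays, cannot settle it. Replicate number as a block gave 30 at P4 and 234 for the age difference, with all 16 and all 132 among them. Without the second P60 KO array, chosen after seeing the data, the counts were 20 and 192. Of 1572 values of single genes at P4, 1422 kept their sign and their side of the threshold. With scan day as a fixed block the sign turned for Pfdn6 (-0.15), Ctsd (-0.0602), Pdia6 (-0.20), Slc7a5 (-0.0419), Hsd17b7 (-0.15), Xist (-0.56) and Hsp90b1 (-0.43), none of them called; the cause was not tested. Without 1 array the uncalled Pmp22 ranged from -0.0852 to 0.0796, Mbp from -0.0261 to 0.108, Hmgcs1 from -0.119 to 0.557, Scd1 from -0.0364 to 0.137, Hspa5 from -0.0505 to 0.195 and Kdm5d from -0.0334 to 0.0636. The number of arrays and the floor limit what can be seen: at the floor a change is a bound.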

Other observations

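Some genes had probe sets that differed. Of 3 Cct3 probe sets, the brightest gave 0.67 ± 0.34, another 0.34 ± 0.14 and the dimmest 1.74 ± 0.35, with 545, 569 and 615 in TR, against 199, 237 and 108 in TG (adjusted p = 0.0734); all 3 had TR higher. The second Chordc1 probe set gave 0.89 ± 0.25, against 1.37 ± 0.34 for the brighter. Of 3 Pdia6 probe sets, 2 gave 1.04 ± 0.38 and 1.08 ± 0.32, and the other 0.20 ± 0.27. Of 5 Col18a1 probe sets 1 lay at the floor at P4 and the other 4 had TR lower, from -1.29 to -0.81.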
